A study of Mus musculus with 9 samples.

Results

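AP-1 is a dimeric transcription factor built from Fos and Jun proteins, and its subunit genes belong to the immediate early genes, which are transcribed within minutes of a stimulus without new protein synthesis. In this report, 10 such genes were followed in long-term macrophage lines: Fos, Fosb, Fosl2, Jun, Junb, Jund, Egr1, Atf3, Dusp1 and Ier2. They were taken by symbol from a table of 24411 genes, and all 10 were found. Of these, 9 reached 1 TPM (the TPM unit is a length-corrected share of a library's transcripts, scaled to the same total in each library) in 3 or more of the 9 libraries and were tested together with the rest of the 11753 genes that did so. Fosb did not reach that level and is described only by its values.

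Macrophages depend on M-CSF, whose receptor signals through the ERK kinases. This route induces Fos, Egr1 and Ier2, while JNK and p38 kinases act on Jun and ATF proteins. Fos proteins bind DNA only as partners of Jun proteins, whereas Jun proteins can also pair with each other. Subunits differ in strength, and JunB and JunD can act as weaker or opposing partners of c-Jun. Dusp1 encodes a phosphatase that switches the MAP kinases off again.

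The libraries came from 9 genetically unmodified mouse lines on the C57BL/6 background, 3 from yolk sac at E9.5 (YS lines), 3 from fetal liver at E14.5 (FL lines) and 3 from adult bone marrow (BM lines). All lines had been expanded for a long time in M-CSF, which all 9 shared, and no other stimulus was named for these libraries. Each line was a bulk culture from its own dish or well, the starting cells were pooled from more than one mouse, and 1 library was made per line. The p-values below therefore measure the spread between cultures, and animals cannot be told apart from cultures.

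The 10 macrophage markers examined, including Csf1r, Adgre1 and Itgam, were all at or above 1 TPM in each line, but their levels differed between the groups. Their summed level ran from 4630 TPM in YS line 1 to 28700 TPM in FL line 2, with 11900 to 13600 TPM in BM lines. Of these sums, Lyz2 alone supplied 1163 TPM in YS line 1 and 21976 TPM in FL line 2. In each comparison with BM lines 3 of 10 were called (30%), where 12.8% of all tested genes were called for YS and 10.3% for FL lines. The Fc receptor gene Fcgr1 had mean levels of 246 TPM in YS, 149 TPM in FL and 16.4 TPM in BM lines, Aif1 120 TPM, 113 TPM and 13.4 TPM, Mertk was higher in FL lines (63.6 TPM against 15.3 TPM in BM), and Lyz2 was lower in YS lines (2575 TPM against 7063 TPM in BM). Of 23 markers of other cell types in the table, between 18 and 21 were under 1 TPM in a line. Their summed level was 8.6 to 96.6 TPM in the other 8 lines and 242 TPM in BM line 2, where the globin transcript Hba-a1 supplied 215 TPM. Of the 5 such markers that were tested, 3 were called higher and 0 lower in FL than in BM lines, and 1 higher and 1 lower in YS than in BM lines. The called shares were 60% and 40%, beside 10.3% and 12.8% of all tested genes. Kdr and Cdh5 were under 1 TPM in each BM line and passed the filter on low values only with the FL lines. Their calls, and the shares that count them, therefore add nothing to their values. The endothelial receptor gene Kdr measured 0.29, 16.1 and 54.4 TPM in the YS lines, 17.4 to 50.4 TPM in FL and 0.03 to 0.86 TPM in BM lines (3.07 and 4.35 against BM on the log2 scale). Cdh5, also endothelial, was at 1.26 to 1.38 TPM in FL and 0 to 0.28 TPM in BM lines. A further endothelial gene, Pecam1, did not follow them, at 0.29 to 8.17 TPM in YS, 0.10 to 0.25 TPM in FL and 0 to 0.56 TPM in BM lines. The granulocyte gene S100a8 was at 0 to 2.19 TPM in YS, 10.5 to 25.1 TPM in FL and 3.43 to 5.00 TPM in BM lines. Of other granulocyte genes, S100a9 and Elane were listed at 0 in each line and Mpo was at or below 0.07 TPM. The part of these markers in the results below was not tested. Over the tested genes, the correlation of log2(TPM + 1) between lines of a group was 0.975 to 0.985 among BM lines, 0.947 to 0.963 among FL lines and 0.912 to 0.960 among YS lines, with YS line 1 the least similar. TPM keeps no read number, so the depth of the libraries is unknown. In these bulk samples, fewer cells that express a gene and less of its RNA per cell cannot be told apart.

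The promoters of Fos, Jun, Jund and Dusp1 are shown first, since the subunits are themselves regulated through such elements. Promoter windows came from RefSeq (GRCm38.p6) and cover the 250 bases before the annotated start, 5′ to 3′ on the gene's own strand. Windows were read for 8 of the 10 genes. Egr1 was left out beforehand, and no window was found for Ier2. Capitals mark a match to 1 of 9 motifs searched on both strands. These were the AP-1 site TGACTCA, the cyclic AMP response element (CRE) TGACGTCA, its shorter core TGACGT, which also lies inside it, the AP-1 variant TGACATCA, the GC box GGGCGG, the CCAAT box, the TATA box read as TATAAA, the EGR site GCGNGGGCG, which can overlap a GC box, and the CArG box, the site of serum response factor. The windows lie at chr12:85473640-85473889 on the plus strand (Fos), chr4:95052223-95052472 on the minus strand (Jun), chr8:70697489-70697738 on the plus strand (Jund) and chr17:26508473-26508722 on the minus strand (Dusp1).
Fos: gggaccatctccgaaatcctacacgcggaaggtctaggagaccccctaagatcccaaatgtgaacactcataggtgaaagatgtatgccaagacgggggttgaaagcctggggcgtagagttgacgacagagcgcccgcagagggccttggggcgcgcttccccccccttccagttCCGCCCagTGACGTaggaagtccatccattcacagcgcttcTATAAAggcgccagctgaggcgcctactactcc
Jun: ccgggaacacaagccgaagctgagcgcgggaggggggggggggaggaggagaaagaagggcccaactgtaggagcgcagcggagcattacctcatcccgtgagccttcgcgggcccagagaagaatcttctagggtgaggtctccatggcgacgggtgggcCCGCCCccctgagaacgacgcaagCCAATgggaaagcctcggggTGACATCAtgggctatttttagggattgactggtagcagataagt
Jund: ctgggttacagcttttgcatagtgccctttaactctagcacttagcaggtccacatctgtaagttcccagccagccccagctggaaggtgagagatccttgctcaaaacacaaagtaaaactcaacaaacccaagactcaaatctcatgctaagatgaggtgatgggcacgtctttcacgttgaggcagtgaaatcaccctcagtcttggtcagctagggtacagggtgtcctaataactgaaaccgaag
Dusp1: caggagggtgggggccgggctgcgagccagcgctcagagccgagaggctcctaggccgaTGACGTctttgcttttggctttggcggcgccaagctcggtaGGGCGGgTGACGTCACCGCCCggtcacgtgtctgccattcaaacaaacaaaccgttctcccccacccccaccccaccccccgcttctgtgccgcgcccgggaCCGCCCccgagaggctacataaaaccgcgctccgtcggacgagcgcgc

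The Fos window held the CRE core at 66 to 61 bases before the start, beside a GC box at 74 to 69 and a TATA box at 33 to 28. The Jun window had no CRE core and held the variant TGACATCA at 45 to 38 bases before the start, a CCAAT box at 65 to 61 and a GC box at 89 to 84. The Dusp1 window held a complete CRE at 143 to 136 and a further core at 191 to 186. None of the 9 motifs was found in the Jund window, which says only that these letters are not in it. Among 32851 RefSeq promoters cut to the same length, 6.47% held the CRE core, 1.55% the complete CRE, 2.93% the variant TGACATCA, 4.46% TGACTCA, 32.7% a GC box, 33.8% CCAAT, 12.4% TATAAA, 4.70% the EGR site and 1.47% a CArG box. The AP-1 site TGACTCA itself was in none of the 8 windows. A match describes the sequence and not an occupied site.

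**Figure D1:**
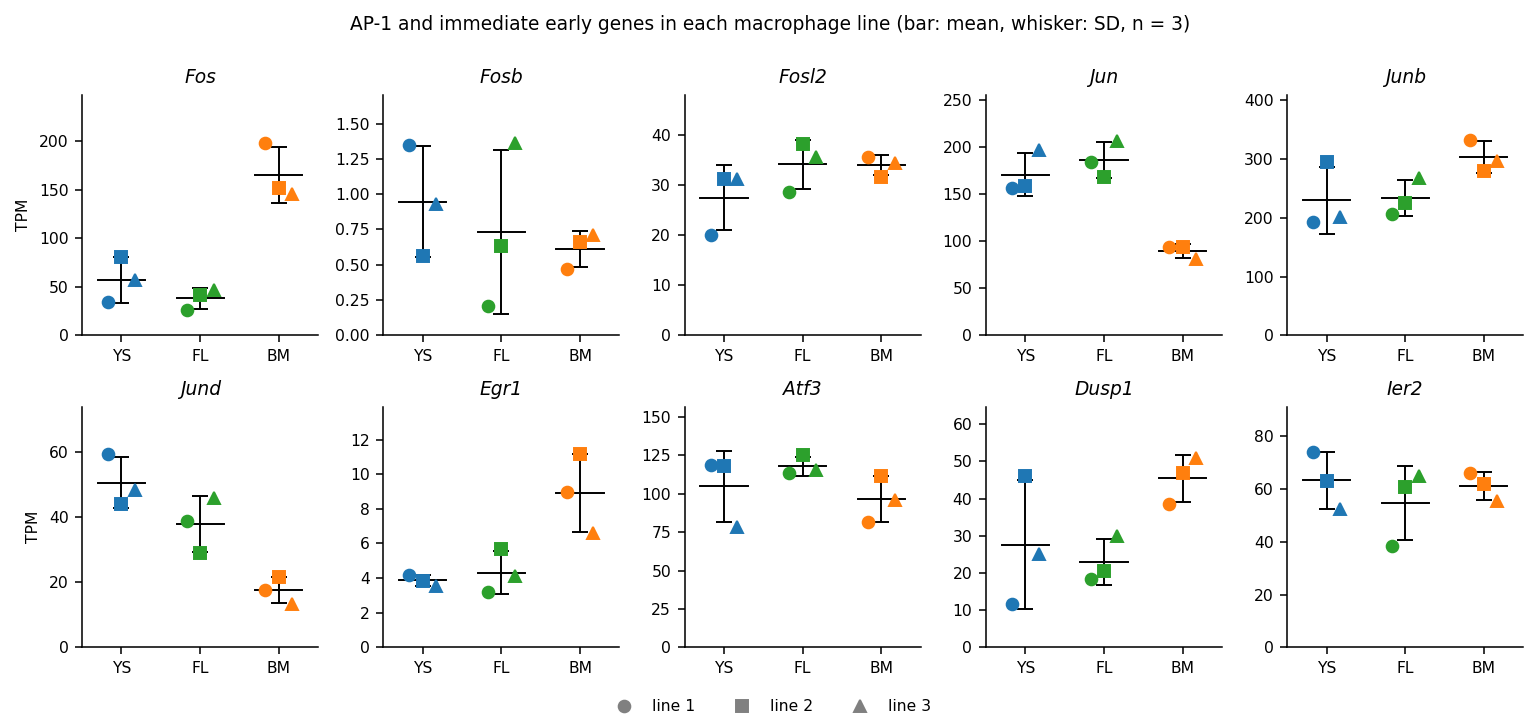
Each panel shows 1 gene, with TPM on the vertical axis from 0 and the YS, FL and BM lines along the horizontal axis; each symbol is 1 line, the bar is the mean and the whisker the SD (n = 3). The BM lines stand apart from the other 6 lines for Fos (145 to 198 TPM), Jun (81.5 to 93.6 TPM), Jund (13.4 to 21.6 TPM) and Egr1 (6.60 to 11.1 TPM), while Atf3 and Ier2 lie at similar levels in all groups.

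The BM lines differed from both embryonic groups in the transcript levels of some AP-1 subunits. Fos was higher and Jun and Jund were lower in the BM lines, and Egr1 was higher, whereas YS and FL lines were not separated by any of the 9 genes tested. A gene was called when it changed more than 2-fold with an adjusted p below 0.1. In YS against BM lines, 3 of the 9 genes were called (Jund higher in YS, Fos and Egr1 lower), where 12.8% of all tested genes were. In FL against BM lines, 3 of 9 were called (Jun and Jund higher in FL, Fos lower), against 10.3% of all genes. In YS against FL lines, 0 of 9 were called by limma and 0 had an unadjusted p under 0.05, against 3.79% of all genes called. By adjusted p alone, Fos, Jun, Jund and Egr1 passed in both comparisons with BM lines, 4 of 9 genes each time (37.9% and 27.6% of all genes), and 0 of 9 passed between YS and FL lines (12.8% of all genes). The comparisons of YS and FL lines with BM lines share the 3 BM libraries and are not independent of each other.

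Fos, the inducible partner of Jun proteins, measured 33.9, 80.9 and 56.9 TPM in YS lines 1 to 3, 26.0, 41.3 and 46.9 TPM in the FL lines, and 198, 152 and 145 TPM in the BM lines. All 3 BM lines were above all 6 embryonic lines, whereas YS and FL lines overlapped. The means were 57.3 ± 23.5 TPM (SD, n = 3) in YS, 38.1 ± 10.8 TPM in FL and 165 ± 28.7 TPM in BM lines, so mean Fos was 2.88-fold higher in BM than in YS lines and 4.33-fold higher than in FL lines. On the log2(TPM + 1) scale, on which all fold changes below are given unless stated, the difference was -1.58 ± 0.32 (SE) for YS minus BM (limma, adjusted p = 0.0098) and -2.11 ± 0.32 for FL minus BM (limma, adjusted p = 0.0032). YS minus FL was 0.53, with a 95% confidence interval of -0.20 to 1.26 (limma, adjusted p = 0.32), a range that includes differences of over 2-fold. Without BM line 2, the line with globin transcripts, Fos differed by -1.64 for YS minus BM and -2.17 for FL minus BM, and both calls held.

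Fosl2, encoding Fra-2, did not pass the test in any comparison. It measured 20.0, 31.3 and 31.2 TPM in the YS lines, 28.7, 38.2 and 35.7 TPM in the FL lines and 35.7, 31.8 and 34.6 TPM in BM lines. The FL and BM ranges overlapped and their difference was 0.00, with a 95% confidence interval of -0.43 to 0.43, so a 2-fold difference lay outside it. The YS lines all lay below the BM lines, by less than 1 TPM between the nearest pair, and YS minus BM was -0.32 ± 0.19 (SE; limma, adjusted p = 0.23). YS line 1 was the lowest of the 9 lines. Fosb was scarce everywhere, at 0.56 to 1.35 TPM in YS, 0.21 to 1.36 TPM in FL and 0.47 to 0.71 TPM in BM lines. Fosl1, encoding Fra-1 and not among the 10 genes, was listed at 0 in all 6 YS and FL lines and at 4.89, 7.44 and 9.12 TPM in the BM lines.

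Jun, encoding c-Jun, ran the other way. It measured 156, 158 and 197 TPM in the YS lines, 184, 168 and 207 TPM in FL lines, and 93.5, 93.6 and 81.5 TPM in BM lines. The highest BM line was below the lowest embryonic line. Mean Jun was 170.5 ± 22.9 TPM in YS, 186 ± 19.5 TPM in FL and 89.5 ± 6.94 TPM in BM lines (SD, n = 3). YS minus BM was 0.92 ± 0.13 (SE; limma, adjusted p = 0.0029), short of 2-fold, and FL minus BM was 1.05 ± 0.13 (limma, adjusted p = 0.0015), just past it. The 2-fold call in FL lines was lost without FL line 3 (0.97) or BM line 3 (0.98) and under either rescaling of the libraries (0.96 with quantile normalization, 0.95 with median-of-ratios scaling), although the adjusted p stayed between 0.00106 and 0.0102 over all 20 alternatives.

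Jund, encoding the subunit that is usually expressed without a stimulus, was the gene of the Jun family with the largest ratio between YS and BM lines. It measured 59.4, 44.1 and 48.4 TPM in the YS lines, 39.0, 29.0 and 45.9 TPM in the FL lines and 17.8, 21.6 and 13.4 TPM in BM lines. As for Jun, all BM lines were below all embryonic lines, and YS and FL lines overlapped. YS minus BM was 1.49 ± 0.22 (SE; limma, adjusted p = 0.0033), which held in all 20 alternatives at 1.32 to 1.64. FL minus BM was 1.07 ± 0.22 (limma, adjusted p = 0.011), which fell under 2-fold without FL line 3 (0.92) or BM line 3 (0.90), under either rescaling (0.97 and 0.98) and with a pseudocount of 4 (0.96). Without FL line 3, Fos alone remained called between FL and BM lines, 1 of 9 genes.

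Junb, encoding a partner that often restrains c-Jun, was the most abundant of the 10 transcripts in each line. It measured 193, 296 and 201 TPM in the YS lines, 207, 226 and 267 TPM in FL lines, and 333, 280 and 297 TPM in BM lines. YS line 2 lay within the BM range, while the FL lines lay below it. The differences of -0.42 for YS minus BM (95% confidence interval -0.83 to -0.02; limma, adjusted p = 0.11) and -0.38 for FL minus BM (-0.79 to 0.02; limma, adjusted p = 0.17) did not pass the test.

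**Figure D2:**
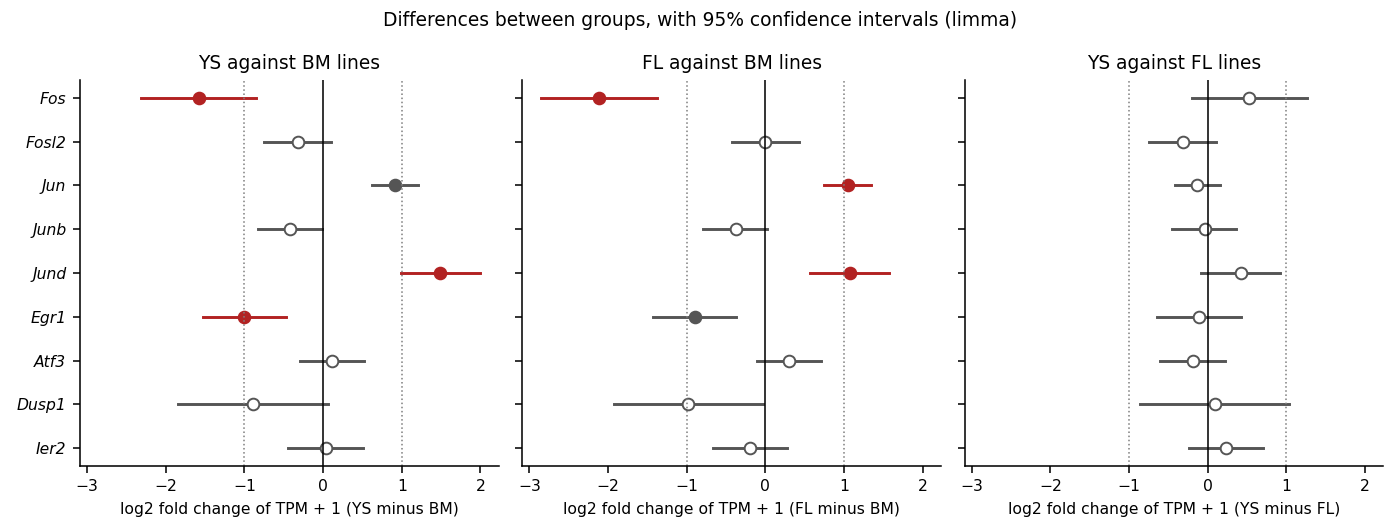
Each panel is 1 comparison of groups, with the log2 fold change of TPM + 1 on the horizontal axis and the 9 tested genes on the vertical axis; points are limma estimates, bars are 95% confidence intervals and dotted lines mark 2-fold. Red points were called, filled grey points passed the adjusted p only, and open points did not pass; Fos lies at -1.58 and -2.11 against BM lines and Jund at 1.49 and 1.07, and the YS against FL panel holds open points only.

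The summed Jun family was similar in size in the 3 groups, but its make-up was not. Jun, Junb and Jund together gave 451 ± 44.8 TPM in YS, 457 ± 54.1 TPM in FL and 411 ± 29.3 TPM in BM lines (SD, n = 3), with overlapping ranges. Junb was 50.5% ± 7.75 of this sum in YS, 51.0% ± 2.69 in FL and 73.9% ± 2.66 in BM lines. Jun was 38.1% ± 6.20 in YS, 40.8% ± 1.80 in FL and 21.8% ± 1.61 in BM lines, and Jund was 11.4% ± 2.88, 8.25% ± 1.21 and 4.29% ± 1.06. Each of these 3 shares separated the BM lines from all 6 embryonic lines. The ratio of Junb to Jun TPM was accordingly 2.99 to 3.65 in BM lines and 1.02 to 1.87 in the other lines.

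The Fos family (Fos, Fosb, Fosl1 and Fosl2) summed to 85.7 ± 28.9 TPM in YS, 73.0 ± 15.8 TPM in FL and 207 ± 27.9 TPM in BM lines. Fos made up 65.7% ± 5.41 of it in YS, 51.6% ± 4.23 in FL and 79.5% ± 3.13 in BM lines, and Fosl2 made up 33.0% ± 4.58, 47.5% ± 4.85 and 16.6% ± 1.65. In FL lines the transcripts of Fos and Fosl2 were thus close to equal, with a ratio of 0.908, 1.08 and 1.31 in lines 1 to 3, while in BM lines the ratio was 5.55, 4.78 and 4.20.

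The ratio of Fos to Jun TPM combines both differences within a library and is unchanged by a single scaling factor per library. Quantile normalization, which works by rank, can change it. It was 0.217, 0.512 and 0.289 in YS lines, 0.141, 0.247 and 0.227 in FL lines, and 2.12, 1.62 and 1.78 in BM lines. Between these 2 genes, Jun transcripts were thus in excess in all 6 embryonic lines and Fos transcripts in all 3 BM lines. For the summed families this was not so. The ratio of Fos family to Jun family TPM was 0.484 to 0.538 in BM lines and 0.128 to 0.227 in the embryonic lines. Jun family transcripts were therefore in excess in each line. Fos and Jun had been examined one by one before the ratios were formed, so both ratios are given as descriptions without a test.

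**Figure D3:**
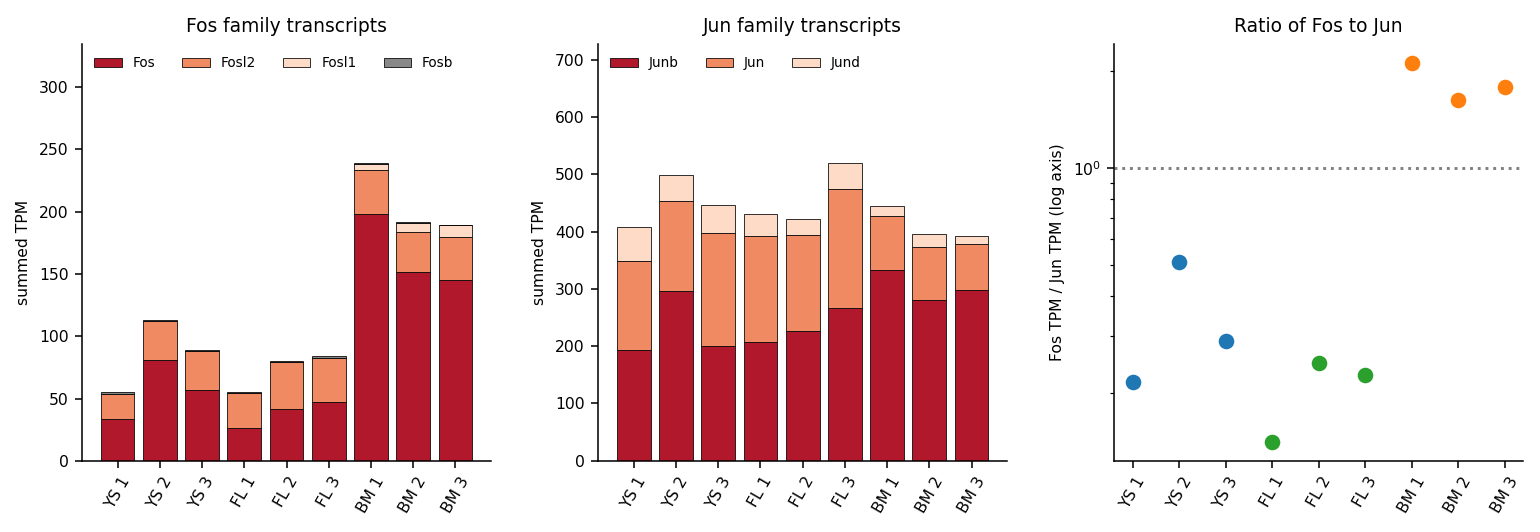
The left and middle panels stack the TPM of the Fos family and Jun family genes in each of the 9 lines on axes from 0, and the right panel gives the ratio of Fos to Jun TPM on a log axis with a dotted line at 1. The Jun family bars reach 392 to 520 TPM in all groups with a larger Junb part in BM lines, and the ratio is 1.62 to 2.12 in BM lines and 0.141 to 0.512 in the others.

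Of the other inducible transcription factors, Egr1, a zinc finger factor induced through ERK, was low in all lines. It measured 4.18, 3.83 and 3.56 TPM in the YS lines, 3.18, 5.67 and 4.10 TPM in the FL lines and 8.98, 11.1 and 6.60 TPM in BM lines. The lowest BM line was above the highest embryonic line by less than 1 TPM. YS minus BM was -1.00 ± 0.23 (SE; limma, adjusted p = 0.016) and FL minus BM was -0.90 ± 0.23 (limma, adjusted p = 0.028). As these lie on both sides of 2-fold, the call is a matter of the threshold and of the scale. In TPM without the added 1, mean Egr1 was 2.31-fold higher in BM than in YS lines and 2.06-fold higher than in FL lines. With 1 line left out, the call was lost for YS without YS line 3 (-0.96), BM line 1 (-0.99) or BM line 2 (-0.84). It was gained for FL without FL line 2 (-1.08) or BM line 3 (-1.08). Over all 20 alternatives, the differences ran from -1.18 to -0.70 for YS and from -1.08 to -0.63 for FL.

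Atf3, a stress-induced partner of Jun proteins, was the third of the 10 transcripts by mean TPM in each group, and no difference between groups passed the test. It measured 119, 118 and 78.3 TPM in the YS lines, 113, 125 and 115 TPM in the FL lines and 81.6, 112 and 96.2 TPM in BM lines. YS minus BM was 0.11 (95% confidence interval -0.30 to 0.52) and turned to -0.01 with quantile normalization, and FL minus BM was 0.30 (-0.11 to 0.71; limma, adjusted p = 0.29). Ier2, an immediate early gene for a nuclear protein, measured 74.3, 63.1 and 52.7 TPM in the YS lines, 38.5, 60.7 and 65.0 TPM in the FL lines and 66.3, 62.0 and 55.6 TPM in BM lines. The 3 groups overlapped, and its YS minus BM difference of 0.04 (95% confidence interval -0.44 to 0.51) became -0.10 with quantile normalization and -0.07 with median-of-ratios scaling. For both genes, 2-fold differences lay outside the intervals of all 3 comparisons.

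Dusp1, the phosphatase that limits p38, JNK and ERK activity, varied more among YS lines than any other of the 9 tested genes varied within a group. It measured 11.6, 46.0 and 25.0 TPM in the YS lines, 18.4, 20.6 and 30.0 TPM in the FL lines and 38.5, 47.0 and 51.0 TPM in BM lines. YS line 2 lay within the BM range, whereas all FL lines lay below it. Neither YS minus BM (-0.89 ± 0.42 SE; limma, adjusted p = 0.14) nor FL minus BM (-0.98 ± 0.42; limma, adjusted p = 0.14) passed the test. The FL minus BM test used a spread shared with the YS lines: with only the FL and BM libraries in the fit, the same -0.98 had a limma adjusted p = 0.0139, still under 2-fold, and without YS line 1 or YS line 2 it had 0.0287 and 0.0573. A single line decided the YS minus BM value, which was -1.35 (limma, adjusted p = 0.0245) and called without YS line 2 and -0.40 (limma, adjusted p = 0.334) without YS line 1.

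Across the 9 tested genes, the groups did not overlap for 5 genes between YS and BM lines (49.0% of all tested genes), for 7 genes between FL and BM lines (49.5%) and for 0 between YS and FL lines (26.1%). The first of these counts is near its background. The median change of the 9 genes was -0.32, -0.19 and -0.04 for YS minus BM, FL minus BM and YS minus FL, beside 0.11, 0.09 and 0.02 for all tested genes. The genes thus moved in both directions rather than as a block. The median shift of all genes went to -0.01 for YS minus BM with quantile normalization, and the calls over all genes then changed from 890 higher and 614 lower in YS to 724 and 763.

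The order of levels also differed between the groups. TPM is corrected for length, so levels can be compared between genes. In YS and FL lines alike, the first 6 places by mean TPM went to Junb, Jun, Atf3, Ier2, Fos and Jund, although the ranges of neighbours overlapped for Ier2, Fos and Jund, and in YS lines also for Junb and Jun. In BM lines the order was Junb, Fos, Atf3, Jun, Ier2, Dusp1, Fosl2, Jund, Egr1 and Fosb, and only Atf3 and Jun overlapped as neighbours. Fos was above 91.5% of the tested genes in BM lines. In YS and FL lines it was above 70.4% and 59.9% of them. Jund was above 40.0% of the tested genes in BM lines and 66.8% in YS lines. All 10 genes together summed to 659 to 874 TPM in every line, with overlapping groups.

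Within groups, Fos varied together with Junb, Fosl2 and Dusp1 rather than with Jun. After each gene was centred on its group means, Pearson's r of log2(TPM + 1) over the 9 lines was 0.89 for Fos and Fosl2, 0.86 for Fos and Junb, 0.81 for Fos and Dusp1 and 0.78 for Junb and Dusp1, but 0.24 for Fos and Jun. Over all 9 lines without centring, Fos and Jun had an r of -0.86, Jun and Jund of 0.88 and Fos and Egr1 of 0.81, which carry the group difference. Over all 36 pairs, the median r was 0.06, or 0.13 after centring. These are descriptions over 9 libraries that share scaling and group structure. For Dusp1 the within-group relation was seen in the embryonic lines and not in the BM lines. YS line 2 had the highest Fos, Junb and Dusp1 of its group and YS line 1 the lowest of each, while among the BM lines the one with the highest Fos (198 TPM) had the lowest Dusp1 (38.5 TPM). BM line 3 had less Fos than BM line 2 but more Junb (297 against 280 TPM) and Fosl2 (34.6 against 31.8 TPM). FL line 3 had more Fos than FL line 2 but less Fosl2 (35.7 against 38.2 TPM). The spread of Fos was widest among YS lines, with a log2 SD of 0.62 against 0.43 in FL and 0.24 in BM lines.

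**Figure D4:**
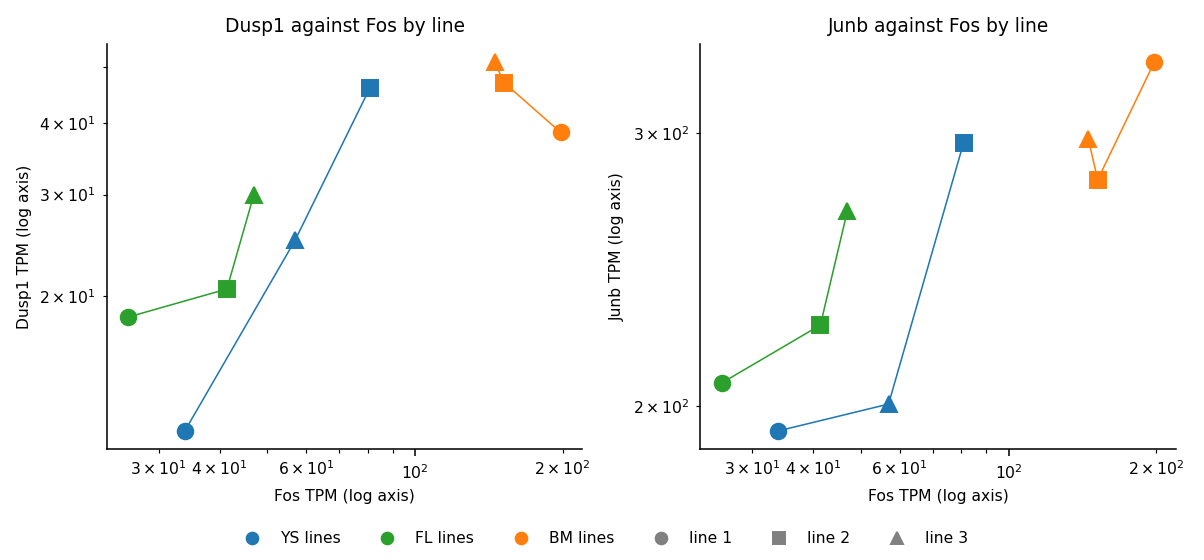
Both panels plot Fos TPM on a horizontal log axis for the 9 lines, against Dusp1 TPM on the left and Junb TPM on the right, also on log axes; colours are groups, symbols are line numbers and thin lines join the lines of a group in order of Fos. Dusp1 and Junb are higher in lines with higher Fos within the YS and FL groups, and among the BM lines Dusp1 goes from 51.0 TPM down to 38.5 TPM as Fos goes up.

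The genes whose pattern was most like the mean z-score of the 9 tested genes over the 9 lines were Mir686, Zc4h2, Ncf4, Fam92a, Pvr, Tomm34, Calcoco1 and Clca4a, with Pearson's r from 0.87 to 0.94. Fos and Jun ran in opposite directions, so the score is the pattern of neither gene. Ncf4, a subunit of the phagocyte NADPH oxidase, had 289 TPM in YS line 2 and 229 and 215 TPM in YS lines 1 and 3. Mir686 was listed at 0 in 3 lines and reached 139.7 TPM in another. After centring on group means, the most similar genes were Syn1, Dbnl, Nlrp1b, Mmp27, Numbl, Mgrn1, Pkdcc and Scarna13 (r of 0.91 to 0.96). Dbnl, an actin-binding adaptor, measured 104, 159 and 125 TPM in YS lines 1 to 3 and 167, 198 and 262 TPM in the FL lines. With 9 lines and 11753 tested genes, such values are a ranking and nothing more.

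Among the other AP-1, ATF and Maf genes, 11 of 12 were tested. In YS against BM lines 2 were called higher and 2 lower, in FL against BM lines 1 higher and 2 lower, and in YS against FL lines 0 by limma (3 at an unadjusted p under 0.05). The shares of the list were 36.4%, 27.3% and 0%, beside 12.8%, 10.3% and 3.79% of all tested genes. Maf, a basic leucine zipper factor of mature macrophages, measured 188 to 286 TPM in YS, 241 to 407 TPM in FL and 17.4 to 51.4 TPM in BM lines (2.97 ± 0.37 and 3.41 ± 0.37 SE against BM; limma, adjusted p = 0.0020 and 0.00099). Fosl1, given above, is counted among the genes called lower in both comparisons with BM lines. It passed the filter on low values only through the BM lines, so these calls add nothing to its values. No fold is given against groups listed at 0. Batf2, an interferon-inducible factor that pairs with Jun proteins, measured 8.52 to 11.5 TPM in BM lines and 0 to 1.03 TPM in FL lines, while YS line 1 reached 8.59 TPM, within the BM range. Batf3, of the same family, was called higher in YS than in BM lines at 2.37 ± 0.82 SE, with 52.0 TPM in YS line 1 and 7.62 and 3.78 TPM in the other two. The median change of the list was -0.07 and 0.02 against BM lines.

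The other immediate early genes moved in both directions. Of 34 tested, 3 were called higher and 5 lower in YS than in BM lines, 2 higher and 8 lower in FL than in BM lines, and 4 higher and 2 lower in YS than in FL lines. These are 23.5%, 29.4% and 17.6% of the list, beside 12.8%, 10.3% and 3.79% of all tested genes. Zfp36l1, which promotes decay of AU-rich mRNAs, measured 83.6 to 129 TPM in YS, 7.53 to 76.0 TPM in FL and 0, 13.9 and 0.05 TPM in BM lines, with the middle value from BM line 2. Ptgs2, encoding cyclooxygenase-2, measured 2.68 to 11.1 TPM in YS, 0 to 0.29 TPM in FL and 2.86 to 3.52 TPM in BM lines and was called lower in FL lines in both comparisons. Nr4a1, an orphan nuclear receptor induced early, measured 9.40 to 14.6 TPM in YS, 0.79 to 3.76 TPM in FL and 3.98 to 5.79 TPM in BM lines, and all 3 of its comparisons were called. Gadd45a, a stress sensor upstream of p38 and JNK, was lower in YS than in BM lines (-2.04 ± 0.61 SE; limma, adjusted p = 0.039), with 0.93 TPM in YS line 1. Ptgs2 and Nr4a1 thus separated YS from FL lines, which none of the 9 tested genes did. Against BM lines, called genes of this list went both ways. Egr3, a relative of Egr1, was higher in YS (1.72 to 8.79 TPM) than in BM lines (0.74 to 2.34 TPM; 1.10 ± 0.44 SE; limma, adjusted p = 0.097), and Ier3 was higher in FL (20.0 to 30.2 TPM) than in BM lines (7.01 to 9.52 TPM). Egr2 and Gadd45b, which like Egr3 and Ier3 were chosen after their values were seen, were higher in BM lines, with Egr2 at 3.35 to 5.28 TPM in BM and 0.48 to 1.88 TPM in the other lines, and Gadd45b at 46.9 to 59.5 TPM in BM and 7.02 to 21.6 TPM in the other lines.

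Few kinases and transcription factors upstream of AP-1 differed by more than 2-fold. Of 29 tested, 2 were called in YS and 3 in FL against BM lines, all higher in the embryonic lines, which is 6.90% and 10.3% of the list beside 12.8% and 10.3% of all genes, and 0 were called by limma in YS against FL lines (8 at an unadjusted p under 0.05). Rps6ka1, encoding an ERK-activated RSK kinase that phosphorylates c-Fos, measured 108 to 148 TPM in YS, 98.8 to 146 TPM in FL and 36.1 to 49.5 TPM in BM lines (1.45 ± 0.19 and 1.46 ± 0.19 SE; limma, adjusted p = 0.0023 and 0.0018). Crem, encoding activators and repressors at CREs, measured 17.5 to 24.9 TPM in YS, 21.2 to 28.9 TPM in FL and 6.94 to 10.5 TPM in BM lines (1.14 ± 0.20 and 1.32 ± 0.20 SE; limma, adjusted p = 0.0061 and 0.0032). By adjusted p alone, 9 were higher and 3 lower in YS than in BM lines, and 7 higher and 3 lower in FL than in BM lines, 12 and 10 of 29 where 37.9% and 27.6% of all genes passed. FL and BM lines did not overlap for 20 of the 29 genes, 17 of them higher in FL, beside 49.5% of all genes. YS and BM lines did not overlap for 14 of the 29, 10 of them higher in YS, which is near the 49.0% of all genes. The median change of this list was 0.19 for YS and 0.28 for FL minus BM, beside 0.11 and 0.09 for all tested genes.

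Feedback inhibitors of the MAP kinases differed gene by gene. Of 14 tested phosphatase and Sprouty genes other than Dusp1, 4 were called higher and 1 lower in YS than in BM lines, 2 higher and 1 lower in FL than in BM lines, and 1 higher and 0 lower in YS than in FL lines. These are 35.7%, 21.4% and 7.14% of the list, where 12.8%, 10.3% and 3.79% of all tested genes were called. Dusp6, a cytoplasmic ERK phosphatase that is itself induced by ERK signalling, measured 167 to 247 TPM in YS, 277 to 344 TPM in FL and 74.7 to 98.7 TPM in BM lines (1.19 ± 0.18 and 1.84 ± 0.18 SE; limma, adjusted p = 0.0037 and 0.00066). Dusp5, the nuclear ERK phosphatase, ran the other way, with 0.77 to 5.18 TPM in YS, 0.73 to 2.60 TPM in FL and 8.57 to 13.8 TPM in BM lines (-1.69 ± 0.46 and -2.08 ± 0.46 SE; limma, adjusted p = 0.028 and 0.015). The direction of Dusp5 was that of Fos, and that of Dusp6 was that of Jun. Dusp2, another nuclear phosphatase, was higher in YS lines (4.57 to 11.4 TPM) than in FL (1.25 to 1.75 TPM) and BM lines (1.69 to 2.72 TPM). Dusp14 was called in YS against BM lines at 1.33 ± 0.48 SE (limma, adjusted p = 0.071).

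Genes known from other systems to be AP-1 targets were called in both directions. Of 12 tested, 2 were called higher and 2 lower in YS than in BM lines, 4 higher and 2 lower in FL than in BM lines, and 0 higher and 3 lower in YS than in FL lines. These are 33.3%, 50% and 25% of the list, beside 12.8%, 10.3% and 3.79% of all tested genes. Mmp12, the macrophage elastase, measured 43.9 to 149.7 TPM in YS, 25.7 to 326 TPM in FL and 4.28 to 5.71 TPM in BM lines (3.68 ± 0.80 and 3.99 ± 0.80 SE; limma, adjusted p = 0.013 and 0.010). Mmp13, collagenase 3, measured 1.12 to 12.1 TPM in YS, 6.14 to 45.1 TPM in FL and 0.11 to 0.58 TPM in BM lines. Spp1, encoding osteopontin, was higher in BM lines (13837 to 16560 TPM) than in FL lines (668 to 2201 TPM), a difference of -3.92 ± 1.37 SE (limma, adjusted p = 0.080), and YS lines ranged from 108 to 7227 TPM. Il1b, a cytokine gene, was under 4 TPM in all lines, at 1.03 to 3.42 TPM in FL lines and 0, 0.22 and 0 TPM in BM lines. It is counted among the genes called higher in FL than in BM lines. Il1b and Mmp13 were under 1 TPM in each BM line and passed the filter on low values only through YS or FL lines. Their calls, and the shares that count them, therefore add nothing to their values.

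Handling of cells can itself induce immediate early genes, and heat shock genes were therefore read in the same libraries. Of 13 tested, none was called higher by limma and 1, the co-chaperone gene Dnajb4, was called lower in both YS and FL than in BM lines (-1.29 ± 0.35 and -1.02 ± 0.35 SE; limma, adjusted p = 0.027 and 0.072). This is 7.69% of the list each time, beside 12.8% and 10.3% of all tested genes. By adjusted p alone, 5 were higher and 1 lower in YS than in BM lines, 0 higher and 1 lower in FL than in BM lines, and 3 higher (Hspa8, Hsp90aa1 and Hsph1) and 0 lower in YS than in FL lines, where 37.9%, 27.6% and 12.8% of all tested genes passed. The median change of the list was 0.43 for YS minus BM and 0.12 for FL minus BM. The part of handling in the levels of Fos and Egr1 was not tested.

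**Figure D5:**
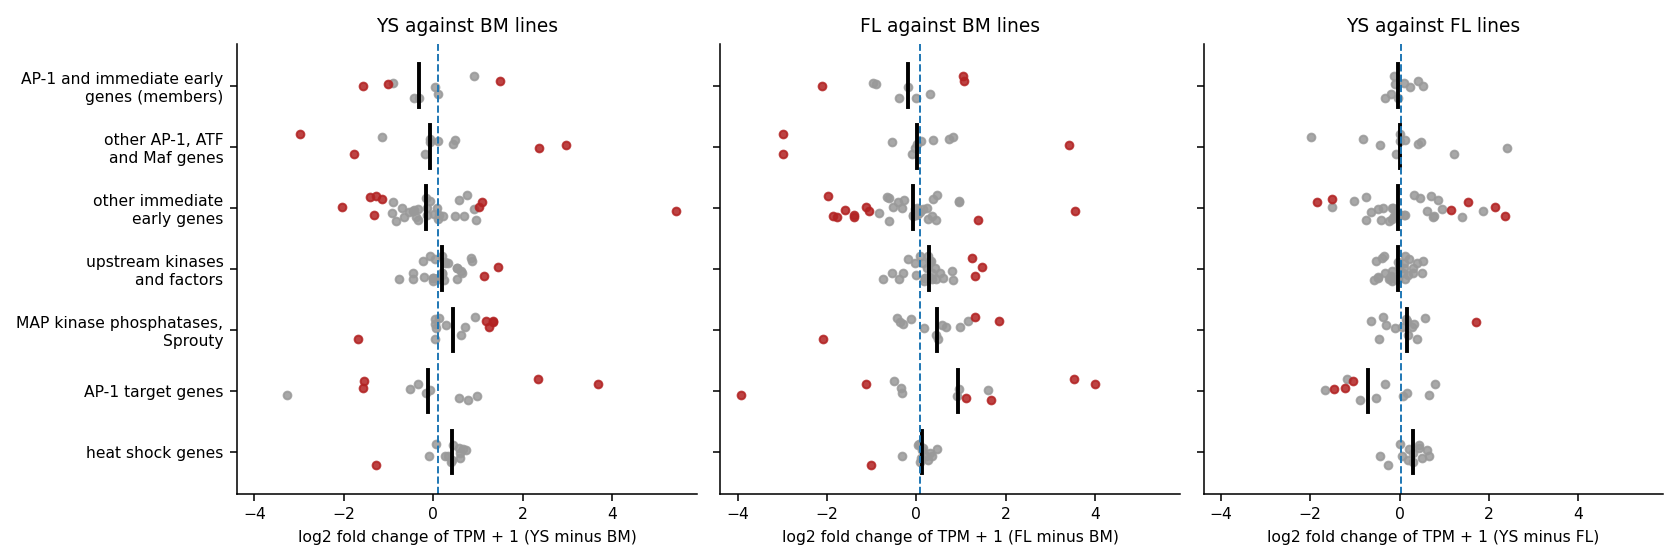
Each panel is 1 comparison, with the log2 fold change of TPM + 1 on the horizontal axis and the gene lists in rows; each point is the fitted change of a tested gene (red if called; for Fosl1, listed at 0 in YS and FL lines, the fitted size is no measure of fold), the black bar is the list's median and the blue dashed line is the median of all tested genes. In the comparisons with BM lines, called genes lie on both sides of 0 for each list drawn here other than the upstream kinases and factors, where those called are higher in YS or FL lines, and the heat shock genes, where 1 is called lower.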

How the data were processed

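Poly(A)-selected, directional libraries from 9 lines had been sequenced as single reads of 75 nt. Per the submitters' processing notes, reads were handled with Trim Galore 0.6.6, STAR 2.7.9a and RSEM 1.3.3; the genome build and annotation are not given in the sources used here. The authors deposited TPM per gene symbol to 2 decimals, which divide out transcript length and library size and so carry no depth; the study's own comparisons used read counts, not used here. Groups and line numbers came from the sample labels. TPM were transformed to log2(TPM + 1), which understates fold changes of low genes, and the 11753 genes that reached 1 TPM in 3 or more libraries were compared with limma 3.58.1 in R 4.3.3, in a linear model of group over the 9 libraries with empirical Bayes and an intensity trend. Adjusted p-values are Benjamini-Hochberg values over all genes tested within a comparison, and calls needed an adjusted p below 0.1 together with a change over 2-fold. The code was tested on simulated data. Alternatives changed the pseudocount, filter, scaling, variance trend, libraries in the fit, thresholds, replicate block and lines.

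The 10 genes and the lists beside them were chosen with earlier results of these data known. From each list, up to 4 called genes with the largest change were named, and 8 genes most like the 10 by each of the 2 measures; others are said to be chosen after their values were seen. Listed genes without a row under their symbol (Ly6g) or with a row under an older one only (Ccn1, Mrtfa, Mrtfb) were counted by the rows present. A called gene of the upstream list is not reported here by name.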

Additional observations from a re-analysis of the deposited data

How the results depend on the processing

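Over 20 alternatives, the number of the 9 genes called was 2 to 4 for YS against BM lines, 1 to 4 for FL against BM lines and 0 throughout for YS against FL lines. Of 540 values of single genes, 500 kept their direction and their side of the threshold. Many of these could not change direction. Other thresholds, or leaving out a line of the group not compared, keep the same fold change, so the count is no measure of stability. Fos kept its calls against BM lines in all 20 alternatives (-1.87 to -1.26 in YS and -2.28 to -1.87 in FL lines). For FL against BM lines, median-of-ratios scaling left 1 gene called, and leaving out 1 line gave 1 to 4, the 1 without FL line 3; in both cases Jun and Jund fell just under 2-fold. Small differences that were not called changed sign. With quantile normalization and median-of-ratios scaling, YS minus BM became -0.01 and 0.00 for Atf3 and -0.10 and -0.07 for Ier2; a pseudocount of 4 gave 0.00 for Fosl2 in FL minus BM. Leaving out each line in turn gave, for YS minus BM, -0.01 to 0.30 for Atf3 and -0.08 to 0.16 for Ier2; for FL minus BM, -0.08 to 0.12 for Fosl2 and -0.33 to 0.04 for Ier2; and for YS minus FL, -0.29 to 0.01 for Atf3, -0.37 to 0.57 for Dusp1, -0.27 to 0.07 for Egr1, 0.00 to 0.37 for Ier2 and -0.24 to 0.07 for Junb. Lines share numbers across groups, and the numbers are not said to pair them. Deviations of same-numbered lines correlated at -0.12 to 0.09, which with 3 lines a group cannot show whether lines were handled together. With the replicate block, 3, 3 and 0 genes were called, as without it. TPM carries no depth, so counting error is unknown, and 3 lines a group limit precision: an exact permutation test of 3 against 3 cannot go below p = 0.1.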
